A study of Mus musculus with 10 samples.

Results

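The genes examined were 10 genes for purinergic signalling out of 55367 listed genes, read in 10 single inspiratory neurons of the preBötzinger complex (preBötC), the brainstem site that generates the rhythm of breathing. They were chosen by name and not by their values, though with earlier results of these data known. Of these, P2rx2, P2rx4, P2rx5, P2rx6 and P2rx7 encode subunits of channels opened by ATP, P2ry1 encodes a G-protein-coupled receptor for ADP and ATP, 3 encode adenosine receptors (Adora1, Adora2a and Adora2b), and 1, Entpd1, encodes an enzyme that breaks down extracellular ATP. Each sample was the cytoplasm of 1 neuron, drawn into the patch pipette after its firing had been recorded in a brainstem slice (Patch-Seq), and so a sample is 1 library from 1 neuron. Samples 5, 6 and 7 were Type-1 neurons of Dbx1;Ai148 mice, aged P0, P3 and P3. Sample 1 was a Type-2 neuron of a Dbx1;Ai148 mouse at P0. Sample 4 was a Type-1 neuron of a CD-1 mouse at P3. Samples 2, 3, 8, 9 and 10 were neurons of Unknown type from CD-1 mice, aged P2, P0, P0, P2 and P1. In Dbx1;Ai148 mice, on a C57Bl/6J or mixed C57Bl/6J;CD1 background, Cre under the Dbx1 promoter switches on the calcium indicator GCaMP6f, which marks neurons descended from Dbx1-expressing precursors. CD-1 mice carried no such mark. The mouse line of each neuron is that of its label, as in the paper's account of the lines by type. Legends in the paper number the lines differently. Type-1 neurons take up inspiratory drive early and carry an A-type potassium current, Type-2 neurons take it up late and carry a hyperpolarisation-activated current, and Unknown neurons could not be placed in either type. The labels named no animal, so each value is that of 1 neuron, and no p-value is given between groups.

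Extracellular ATP acts on P2X receptors, which are cation channels that ATP itself opens, and on P2Y receptors, which couple to G proteins. Enzymes on the cell surface, among them the product of Entpd1, cut ATP down to AMP, and a further step yields adenosine. Adenosine in turn acts on its own receptors. The A1 receptor, from Adora1, couples to Gi and Go proteins and lowers excitability, whereas the A2 receptors, from Adora2a and Adora2b, couple to Gs and raise cyclic AMP. In the preBötC this system is studied for the ventilatory response to low oxygen, in which ATP released in the region excites inspiratory activity through P2Y1 receptors, encoded by P2ry1, and adenosine counters it.

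Libraries held 21392146 to 36629393 fragments counted on genes, and 19.1% to 37.1% of the 21600 protein-coding genes stood at 1 FPKM or more in a given neuron. FPKM relates a gene's fragment count to its length in kilobases and to the library's total on genes, in units of 1e+06 fragments. A gene is called found in a neuron where it stood at 1 FPKM or more. A count of 0 allows up to 3 fragments, which is 0.0819 CPM in the deepest library and 0.14 CPM in the shallowest. Some libraries went against a purely neuronal label. Sample 4 held all 11 microglial markers at 1 FPKM or more, with a summed level of 19230 FPKM, and only 58.4 FPKM over 8 neuronal markers. Samples 2, 3 and 8 held 7, 7 and 8 of 10 astrocyte markers at that level. Microglial markers were not limited to these 4 libraries: samples 10 and 5 held 10 and 8 of the 11, with sums of 271 and 151 FPKM. Values of the 10 genes that rest on samples 2, 3, 4 and 8 are given below with and without them. Samples 1 to 4, which the study set apart for lower and more variable expression, had the fewest coding genes at 1 FPKM or more, 19.1% to 26.1%, where samples 5 to 10 had 26.5% to 37.1%.

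Transcripts of the receptors for ATP and adenosine were sparse and unevenly spread over the neurons. Only 11 of the 100 values (10 genes in 10 neurons) reached 1 FPKM, 22 lay above 0 and below 1 FPKM, and 67 were 0. P2rx4, P2rx6, P2rx7, Adora1, Adora2b and Entpd1 reached 1 FPKM in at least 1 neuron, which is 6 of 10 genes, where 57.8% of protein-coding genes and 29.9% of all listed genes did so. The share of these genes found was thus close to that of coding genes at large. Few of them were found in several neurons. P2rx4 alone reached 1 FPKM in as many as 3 neurons, 1 of 10 genes beside 42.1% of coding genes. P2rx5, P2ry1 and Adora2a had no fragment in any neuron, 3 of 10 genes beside 34.4% of coding genes.

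**Figure D1:**
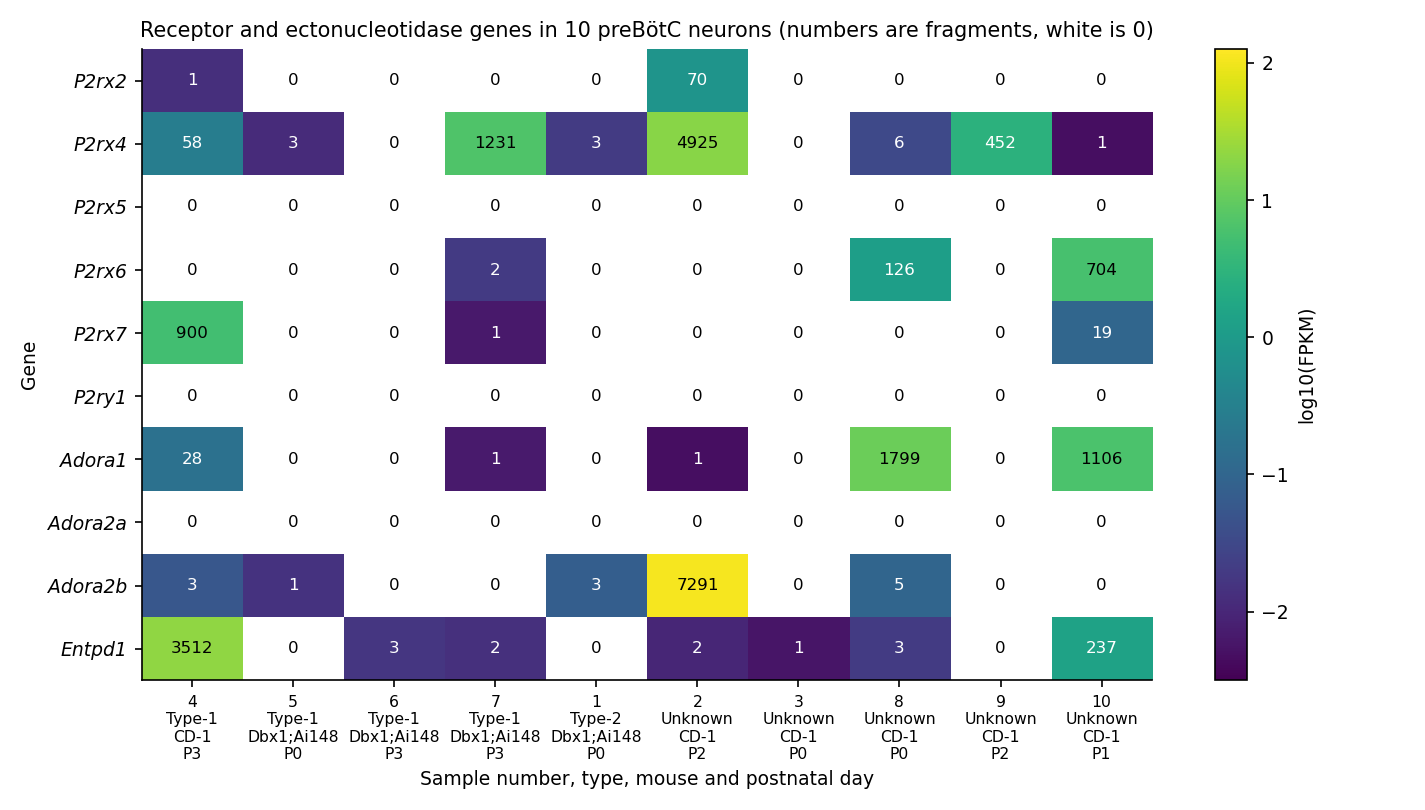
Each of the 10 genes (rows) in each of the 10 neurons (columns, with type, mouse and postnatal day), with the fragment count printed in each cell, log10(FPKM) as colour, and white for 0. Adora2b in sample 2 is the highest value, with 7291 fragments, and P2rx5, P2ry1 and Adora2a are 0 in all 10 neurons.

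**Figure D2:**
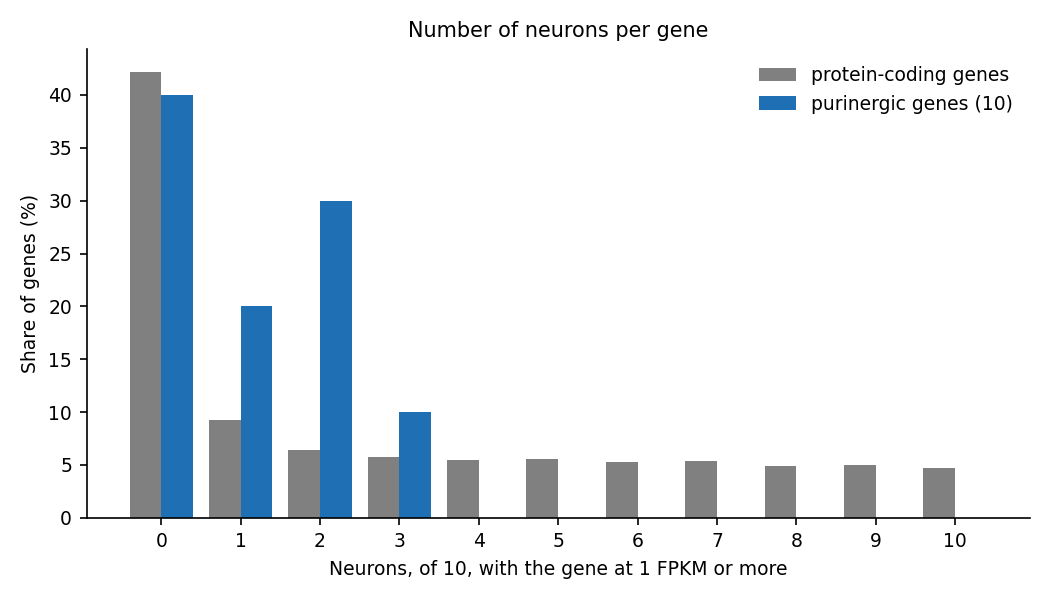
Share of genes (vertical axis, %) at 1 FPKM or more in a given number of the 10 neurons (horizontal axis), for the 10 purinergic genes and for the 21600 protein-coding genes. Of the purinergic genes 4 reached the limit in no neuron, 2 in 1, 3 in 2 and 1 in 3, whereas 4.67% of coding genes reached it in all 10 neurons.

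The order of the mean levels over 10 neurons was Adora2b (10.9 ± 34.5 FPKM, SD, n = 10), P2rx4 (2.94 ± 6.17), Entpd1 (2.28 ± 6.72), Adora1 (1.81 ± 3.99), P2rx6 (0.698 ± 1.82), P2rx7 (0.523 ± 1.62) and P2rx2 (0.0763 ± 0.237), with the other 3 genes at 0. Each SD was larger than its mean, and no gene in this order differed from its neighbour by more than their spread. A mean here describes 1 or a few neurons, and so does the order. Without sample 2, Adora2b averaged 0.0276 FPKM. Without samples 2, 3, 4 and 8 the order was P2rx4 (1.63 FPKM), Adora1 (1.05), P2rx6 (0.966), Entpd1 (0.237), P2rx7 (0.0185) and Adora2b (0.0151), with P2rx2 at 0. More than 90% of the summed FPKM lay in a single neuron for P2rx7, Adora2b and Entpd1, which is 3 of the 6 genes that reached 1 FPKM, beside 14.9% of the 12482 coding genes that did. The intervals given below are exact 95% Poisson intervals and cover counting error only, since the cDNA was amplified without molecular identifiers.

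**Figure D3:**
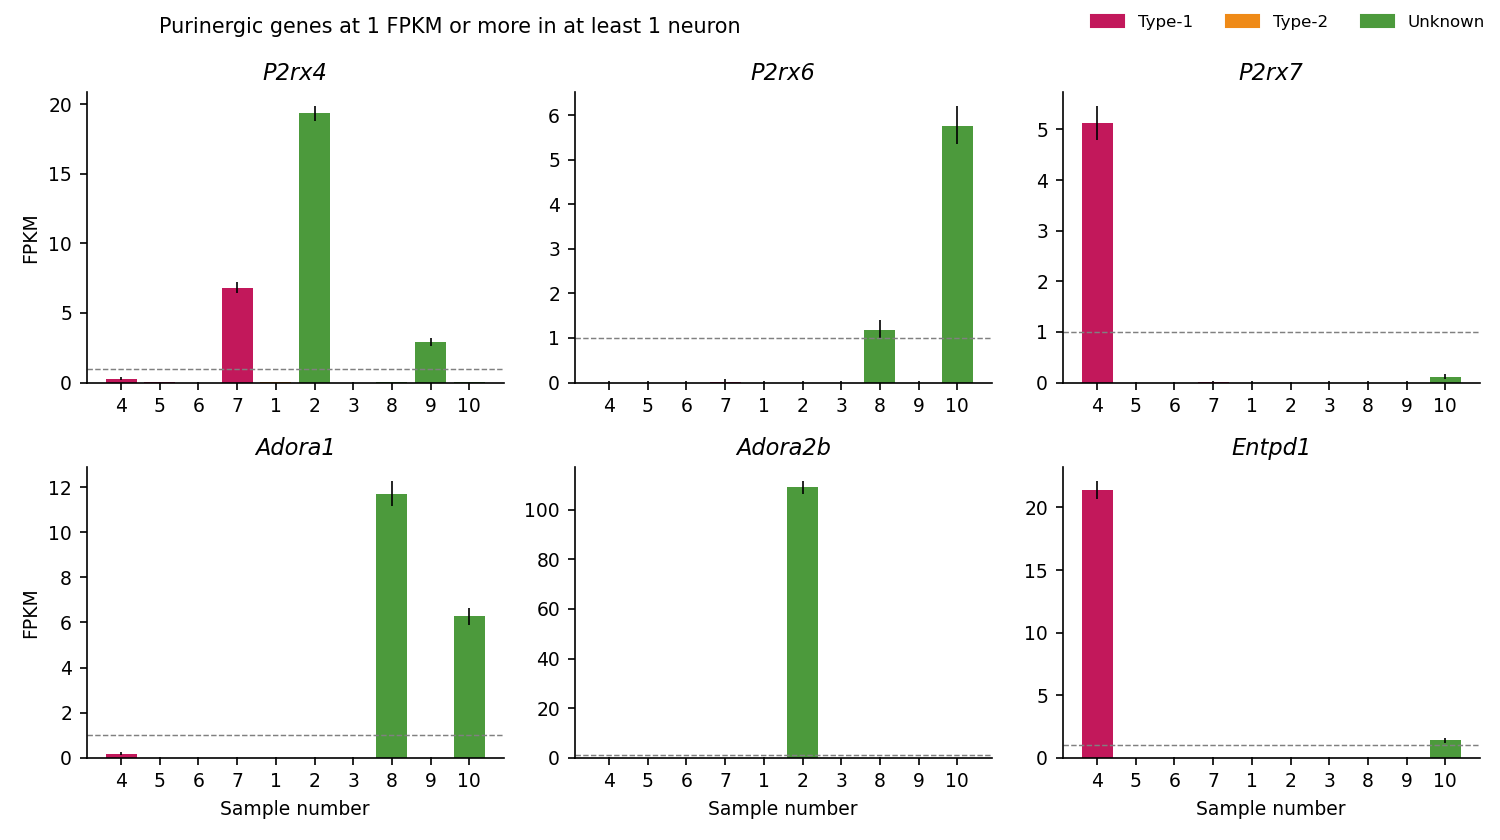
FPKM (linear vertical axes, which differ between panels) of the 6 genes that reached 1 FPKM, 1 bar per neuron coloured by type, with exact 95% Poisson intervals as error bars and a dashed line at 1 FPKM. In each panel 1 to 3 neurons lie above the line, and the other neurons do not exceed 0.28 FPKM.

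P2rx4 was the most widely found of the ATP-gated channels, and its RNA was present in neurons of both mouse lines. The P2X4 subunit forms calcium-permeable channels and is known both from neurons and, after injury, from microglia. P2rx4 lies on chromosome 5 at 122707544 to 122729738 on the plus strand (GRCm38). In samples 1 to 10 it stood at 0.02, 19.3, 0, 0.28, 0.0117, 0, 6.82, 0.0322, 2.91 and 0.00466 FPKM. Samples 2, 7 and 9 were high, an Unknown CD-1 neuron, a Type-1 Dbx1;Ai148 neuron and another Unknown CD-1 neuron, and the next value, in sample 4, was below all of them. These 3 values rested on 4925, 1231 and 452 fragments, with intervals of 18.8 to 19.9, 6.45 to 7.22 and 2.65 to 3.2 FPKM, so that the counting intervals did not overlap. Sample 4 had 58 fragments, and the other 6 neurons had 6 fragments or fewer. Without samples 2, 3, 4 and 8 the mean was 1.63 ± 2.8 FPKM (SD, n = 6), and samples 7 and 9 remained above the limit.

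P2rx4 and the microglial markers were not high in the same set of neurons. In sample 7 no microglial marker exceeded 0.429 FPKM, their summed level was 1.5 FPKM, and Csf1r, the receptor that microglia depend on, had no fragment, while P2rx4 stood at 6.82 FPKM. Sample 4, with the highest microglial sum, had P2rx4 at 0.28 FPKM. In sample 9 only Ctss, a lysosomal protease, among the 11 microglial markers reached 1 FPKM, at 25.9 FPKM. Sample 2, where P2rx4 was highest, did hold 9 of the 11 markers and a sum of 2391 FPKM, and the part of that RNA in its P2rx4 value was not tested. Sample 7 also carried Slc17a6, the vesicular glutamate transporter, at 156 FPKM. Sample 9 carried Slc18a3, the vesicular acetylcholine transporter, at 444 FPKM and 4 of 5 markers of cholinergic motoneurons at 1 FPKM or more, where no other neuron held more than 1 of the 5.

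P2rx6 was found in a pair of CD-1 neurons of Unknown type. The P2X6 subunit forms few channels by itself and joins P2X2 or P2X4 subunits in mixed channels. The gene lies on chromosome 16 at 17561885 to 17577800 on the plus strand. It stood at 5.77 FPKM in sample 10 (704 fragments, interval 5.36 to 6.22), at 1.19 FPKM in sample 8 (126 fragments, interval 0.989 to 1.41) and at 0.0195 FPKM in sample 7 (2 fragments), and the other 7 neurons had none. Without sample 10 the mean of 0.698 FPKM was 0.134 FPKM. Samples 8 and 10 thus stood apart, and neither reached 1 FPKM of P2rx2 or P2rx4, the genes for its partner subunits. P2rx6 shares 554 of its 3995 exon bases with Slc7a4, a gene on the opposite strand, so that fragments there cannot be assigned by position. Slc7a4 was highest in sample 7, at 41.5 FPKM, where P2rx6 had 2 fragments, and it stood at 13.5 and 8.87 FPKM in samples 8 and 10.

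P2rx7 was found almost entirely in sample 4, the library with the most microglial RNA. The P2X7 receptor opens at high ATP levels and is known from microglia and other immune cells. It lies on chromosome 5 at 122643911 to 122691432 on the plus strand, upstream of P2rx4. Its level was 5.12 FPKM in sample 4 (900 fragments, interval 4.79 to 5.47), 0.104 FPKM in sample 10 (19 fragments) and 0.00652 FPKM in sample 7 (1 fragment), with no fragment in the other 7 neurons. Sample 4 held 97.9% of its summed FPKM, and without it the mean was 0.0123 FPKM in place of 0.523 FPKM. The 11 microglial markers summed to 19230 FPKM there, against 1.5 to 2391 FPKM in the other 9 neurons, and their part in the P2rx7 value was not tested. Sample 2, with the second highest microglial sum, had no P2rx7 fragment.

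P2rx2, whose subunit carries much of the fast ATP current in many neurons, stayed below 1 FPKM throughout. It lies on chromosome 5 at 110339812 to 110343212 on the minus strand, and had 70 fragments in sample 2 (0.75 FPKM, interval 0.585 to 0.948), 1 in sample 4 and none in the other 8 neurons, so that its mean without samples 2, 3, 4 and 8 was 0. P2rx5, on chromosome 11 at 73160421 to 73172685 on the plus strand, had none in any neuron, which allows up to 0.0342 FPKM in the deepest library and 0.0586 FPKM in the shallowest. At this depth P2rx2 and P2rx5 were therefore not detected, or close to it, in every neuron but sample 2.

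P2ry1, the gene for the Gq-coupled P2Y1 receptor and the member of the family most often tied to the hypoxic response of the preBötC, had no fragment in any of the 10 neurons. It lies on chromosome 3 at 61002795 to 61008982 on the plus strand. The count of 0 allows 0.0191 FPKM in the deepest library and 0.0327 FPKM in the shallowest, again for counting error only. P2ry1 shares 992 of its 4291 exon bases with an antisense gene, Gm37035, which had 551 fragments in all and stood at 7.67 FPKM in sample 7 and 1.94 FPKM in sample 10. The deposited counts do not show whether fragments in the shared stretch were given to one gene or dropped, and no fragment was counted in the 3299 exon bases that P2ry1 does not share.

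Among the adenosine receptors, Adora1 was found in a pair of neurons and Adora2b in a single one, and no neuron held both at 1 FPKM. Adora1 lies on chromosome 1 at 134199223 to 134235431 on the minus strand. In samples 1 to 10 it stood at 0, 0.00477, 0, 0.164, 0, 0, 0.00673, 11.7, 0 and 6.26 FPKM. Samples 8 and 10, both CD-1 neurons of Unknown type, were high, with 1799 fragments (interval 11.2 to 12.3) and 1106 fragments (interval 5.9 to 6.65). Sample 4 had 28 fragments, samples 2 and 7 had 1 each, and 5 neurons had none. The same pair of neurons held P2rx6, so that the channel subunit and the inhibitory adenosine receptor were found together in these libraries.

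The pair with Adora1 differed in transmitter genes and in glial RNA. Sample 8 carried the glutamatergic Slc17a6 at 230.4 FPKM, whereas sample 10 carried Gad1 and Gad2, the enzymes of GABA synthesis, at 92 and 34.2 FPKM. Sample 8 held 8 of 10 astrocyte markers, with a summed level of 747 FPKM, and sample 10 held 3, with 152 FPKM. Sample 3 had the highest astrocyte sum, 1673 FPKM, and no Adora1 fragment. These sums rest largely on Aldoc, which stood at 115 FPKM or more in all 10 neurons and at 1193 FPKM in sample 3. Sample 9 summed to 763 FPKM with only 1 astrocyte marker at 1 FPKM or more, so the sum is a poor measure of astrocyte RNA. Sample 10 held 10 of the 11 microglial markers, as sample 8 did, with sums of 271 and 660 FPKM, and the part of that RNA in the Adora1 values was not tested. Without samples 2, 3, 4 and 8, Adora1 averaged 1.05 ± 2.56 FPKM (SD, n = 6), all from sample 10 but for 1 fragment.

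Adora2b gave the single highest value of the set. The A2B receptor responds to high adenosine levels and is known from glia, vessels and immune cells. The gene lies on chromosome 11 at 62248984 to 62266453 on the plus strand. Sample 2 had 7291 fragments, or 109 FPKM (interval 107 to 112). The 9 other neurons had 5 fragments or fewer and at most 0.102 FPKM. Sample 2 held 99.8% of the summed FPKM, and without samples 2, 3, 4 and 8 the highest value was 0.076 FPKM, from 3 fragments. Sample 2 also held 7 of 10 astrocyte markers (summed level 1024 FPKM, of which Aldoc gave 844) and 9 of 11 microglial markers. It held Olig2, a transcription factor of the oligodendrocyte lineage, at 39.5 FPKM, which was at most 0.054 FPKM in the other neurons. Samples 3 and 8 held as many astrocyte markers, or 1 more, with Adora2b at 0 and 0.102 FPKM. The part of glial RNA in the Adora2b value was not tested.

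Adora2a, the gene for the other Gs-coupled adenosine receptor, had no fragment in any neuron. It lies on chromosome 10 at 75316877 to 75334784 on the plus strand, and the count of 0 allows 0.0267 FPKM in the deepest library and 0.0458 FPKM in the shallowest.

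Entpd1, which encodes the ectonucleotidase CD39, was found in samples 4 and 10. It lies on chromosome 19 at 40612366 to 40741602 on the plus strand. In samples 1 to 10 it stood at 0, 0.00989, 0.00575, 21.4, 0, 0.0171, 0.014, 0.0202, 0 and 1.39 FPKM. Sample 4 had 3512 fragments (interval 20.7 to 22.1) and sample 10 had 237 (interval 1.22 to 1.58), while the other neurons had 3 fragments or fewer. CD39 is known as a surface enzyme of microglia. The microglial list was highest in sample 4, but sample 2, with 9 of its 11 markers at 1 FPKM or more, had 2 Entpd1 fragments, and sample 8, with 10 markers, had 3. The part of microglial RNA in samples 4 and 10 in these values was not tested. Without samples 2, 3, 4 and 8 the mean was 0.237 ± 0.566 FPKM (SD, n = 6), in place of 2.28 FPKM.

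The sequences just upstream of 4 genes are shown, as pairs whose RNA came up in the same neurons. These were P2rx6 and Adora1 in samples 8 and 10, and P2rx4 and Adora2b in sample 2. Other genes came up together as well and are not shown, such as P2rx7 and Entpd1 in sample 4. P2rx4 was found without Adora2b in samples 7 and 9. Each sequence is the 250 bases before a start site, written 5′ to 3′ in the direction of the gene, from RefSeq promoters of GRCm38.p6. The letters searched on both strands were ACGTG, the core of the hypoxia response element, and TGACG, a short form of the cyclic AMP response element, which overlap where TGACG runs into TG. Capitals mark a match, which reads CACGT or CGTCA where it lies on the other strand.
P2rx6, chr16:17561635-17561884, plus strand: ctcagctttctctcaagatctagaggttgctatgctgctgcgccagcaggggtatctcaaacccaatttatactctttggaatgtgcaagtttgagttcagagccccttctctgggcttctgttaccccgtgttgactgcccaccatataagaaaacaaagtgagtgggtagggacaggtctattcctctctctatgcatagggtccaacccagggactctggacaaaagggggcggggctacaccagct
Adora1, chr1:134235458-134235707, minus strand: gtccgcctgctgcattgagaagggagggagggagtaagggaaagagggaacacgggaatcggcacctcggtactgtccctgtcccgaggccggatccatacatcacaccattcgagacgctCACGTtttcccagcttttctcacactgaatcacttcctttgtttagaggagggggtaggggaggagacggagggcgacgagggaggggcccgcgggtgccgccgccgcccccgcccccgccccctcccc
P2rx4, chr5:122707294-122707543, plus strand: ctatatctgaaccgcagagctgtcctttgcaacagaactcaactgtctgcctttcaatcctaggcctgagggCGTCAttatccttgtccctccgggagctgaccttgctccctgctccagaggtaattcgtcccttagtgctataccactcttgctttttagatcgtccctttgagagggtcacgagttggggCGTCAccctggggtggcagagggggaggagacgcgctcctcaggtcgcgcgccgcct
Adora2b, chr11:62248734-62248983, plus strand: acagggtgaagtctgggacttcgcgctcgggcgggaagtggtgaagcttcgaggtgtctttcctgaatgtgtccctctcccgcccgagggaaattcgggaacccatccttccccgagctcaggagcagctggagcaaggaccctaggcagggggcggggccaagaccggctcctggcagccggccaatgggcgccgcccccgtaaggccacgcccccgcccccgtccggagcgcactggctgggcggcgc

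RefSeq gave 10 such promoters for 7 of the 10 genes, none for P2rx2, P2rx5 and Adora2a. The hypoxia core was in 1 of the 10, the Adora1 promoter shown, 129 bases before its start, beside 16.6% of 32851 promoters of the same length. Another promoter of Adora1, not shown, did not hold it. The short cyclic AMP element was in 3 of the 10, beside 17.8% of all promoters. Those were the P2rx4 promoter, 178 and 57 bases before the start, and both promoters of Entpd1. The full element TGACGTCA was in none of the 10 and in 1.55% of all. Base composition differed within each pair. The P2rx6 promoter held 50.8% G and C and 3 CpG sites, and the Adora1 promoter shown 64.4% and 19, although both genes were read in samples 8 and 10. The promoter of Adora2b held 69.6% and 22, and that of P2rx4 57.2% and 13, where the median promoter held 52.4% and 6. A match is a run of letters and not a shown binding site.

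Seen by neuron, the receptors formed different combinations. Sample 2 held P2rx4 and Adora2b, sample 4 held P2rx7 and Entpd1, sample 8 held P2rx6 and Adora1, and sample 10 held P2rx6, Adora1 and Entpd1. Samples 7 and 9 held P2rx4 alone. Samples 1, 3, 5 and 6 held none of the 10 genes at 1 FPKM, of which samples 1 and 3 had the fewest coding genes at that level of all neurons (19.1% and 19.4%), whereas samples 5 and 6 had 37.1% and 34.4%. Of the 33 values above 0, 18 rested on 1 to 6 fragments, and 16 were at or below 0.2% of the count in the library where the gene was highest. Whether such low counts were carried over from other libraries was not tested.

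Excluding samples 2, 3, 4 and 8, 5 of 60 values reached 1 FPKM. They were P2rx4 in samples 7 and 9, and P2rx6, Adora1 and Entpd1 in sample 10. Sample 10, which gave 3 of the 5, itself held 10 of 11 microglial markers. Counted by gene this is 4 of 10, beside 52.5% of coding genes in these 6 neurons. Excluding samples 1 to 4 instead, 7 of 60 values reached it, again in 4 of 10 genes, beside 53.9% of coding genes. Leaving out sample 4 alone removed P2rx7, so that 5 of 10 genes reached 1 FPKM in another neuron, beside 55.9% of coding genes.

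Between the mouse lines, the 10 genes reached 1 FPKM in 10 of 60 values from CD-1 neurons and in 1 of 40 values from Dbx1;Ai148 neurons. That one value was P2rx4 in sample 7. Of coding genes, 19.4% to 36.3% reached the limit in a CD-1 neuron and 19.1% to 37.1% in a Dbx1;Ai148 neuron. This direction rests on the labels, which go with the paper's text. There all Unknown neurons and 1 Type-1 neuron were from CD-1 mice, and the Type-2 and other Type-1 neurons were Dbx1-derived. With samples 1 to 6 taken as CD-1 and samples 7 to 10 as Dbx1;Ai148, the numbering in the figure legends, the counts were 4 of 60 and 7 of 40, and the direction turned. That numbering would make the Type-2 neuron a CD-1 neuron, which the paper's text contradicts. In at least 1 of the 4 Dbx1;Ai148 neurons 1 of 10 genes reached the limit, beside 48.1% of coding genes, and in at least 1 of the 6 CD-1 neurons 6 of 10 did, beside 53% of coding genes. The neurons differed in other ways as well: samples 2, 3, 4 and 8 were all from CD-1 mice, so the mouse line and glial RNA cannot be told apart for those libraries. Without them the counts were 4 of 20 CD-1 values, all from samples 9 and 10, and 1 of 40 Dbx1;Ai148 values. Sample 10, which gave 3 of the 4, itself held 10 of 11 microglial markers. By gene the values overlapped. None of the 6 genes that reached 1 FPKM had all Dbx1;Ai148 values above or below all CD-1 values, where 1.83% of the 16546 genes that reached it did.

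By electrophysiological type, the limit was reached in 3 of 40 values from Type-1 neurons, in 8 of 50 from Unknown neurons and in 0 of 10 from the single Type-2 neuron. Of coding genes, 26.1% to 37.1% reached it in a Type-1 neuron, 19.4% to 36.3% in an Unknown neuron and 19.1% in the Type-2 neuron, the lowest of all. The 3 values in Type-1 neurons were P2rx4 in sample 7 and P2rx7 and Entpd1 in sample 4, and the latter pair came from the library with the lowest summed level of neuronal markers. None of the 6 genes separated Type-1 from Unknown neurons, beside 0.973% of the 16546 genes that reached 1 FPKM in any neuron. All Unknown neurons were from CD-1 mice and only sample 4 among the Type-1 neurons was, so type and mouse line cannot be told apart.

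By age, 2 of 40 values reached 1 FPKM at P0, 3 of 10 in the single P1 neuron and 6 of 50 at P2 and P3. Of coding genes, 19.1% to 37.1% reached it in a P0 neuron, 36.3% in the P1 neuron and 21.2% to 34.4% in a P2 or P3 neuron. P2rx4 reached it in 3 of 5 neurons at P2 and P3 and in none of 4 at P0, where the highest value was 0.0322 FPKM. Sample 6, at P3, had no P2rx4 fragment, so the ages overlapped. None of the 6 genes separated P0 from P2 and P3, beside 0.665% of those 16546 genes. Sample 6 was the only P2 or P3 neuron within the P0 range, so leaving it out fixes a separation by P2rx4 in advance. Without it P2rx4 was higher in every P2 and P3 neuron than in any at P0, as 1 of the 6 genes. Of the 16546 genes 1.37% then did not overlap. Leaving out any other single neuron separated none of the 6 genes. The P2 and P3 neurons include samples 2 and 4 (P2rx4 at 19.3 and 0.28 FPKM), which held glial markers.

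The other receptors of the P2X, P2Y and adenosine families were mostly sparse as well, with the exception of P2ry12. Of 10 such genes 4 reached 1 FPKM in some neuron, beside 57.8% of coding genes. They were 1 of 2 P2X genes, 3 of 7 P2Y genes and not Adora3. P2ry12, which encodes a Gi-coupled ADP receptor and is a well-known microglial gene, stood at 108.5, 36.3, 477, 8.11 and 14.7 FPKM in samples 2, 3, 4, 5 and 10 and below 1 FPKM in the other 5 (mean 64.6 ± 149, SD, n = 10). Sample 4 alone held 73.8% of that sum, and without samples 2, 3, 4 and 8 the mean was 3.89 ± 6.21 FPKM (SD, n = 6). P2ry13, a related ADP receptor, and P2rx1 were found in sample 4 only, at 20.1 and 2.32 FPKM. Sample 4 therefore held P2rx1, P2rx7, P2ry12, P2ry13 and Entpd1 together, beside all 11 microglial markers. P2ry2, a Gq-coupled receptor for ATP and UTP, was found in sample 8 at 15.4 FPKM. P2rx3, P2ry4 and P2ry10 had no fragment, and Adora3 did not exceed 0.0273 FPKM.

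Enzymes listed for the steps from extracellular ATP to adenosine and inosine were mostly found in a single neuron each. Of 10 such genes, Entpd1 included, 6 reached 1 FPKM, a share close to the 57.8% of coding genes, with 0 to 3 in a neuron. Entpd2, which forms ADP from ATP, and Alpl, an alkaline phosphatase, stood at 42.3 and 34.1 FPKM in sample 2. Ada, the adenosine deaminase and the highest of the list by mean (6.29 ± 16.3 FPKM), stood at 51.5 and 11.2 FPKM in samples 2 and 4, and averaged 0.00616 FPKM without samples 2, 3, 4 and 8. Sample 2, with the high Adora2b value, thus held 3 genes of this list. The remaining genes of the list at 1 FPKM were Entpd3, at 13 FPKM in sample 9, and Enpp2, at 15.8 FPKM in sample 7. Of their summed FPKM, 0% and 0.242% lay in samples 2, 3, 4 and 8. Nt5e, whose product CD73 forms adenosine from AMP, had 22 fragments in sample 2 and none elsewhere.

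Genes that act on adenosine inside the cell came up in more neurons. Of 11 genes for adenosine uptake and intracellular adenosine enzymes 9 reached 1 FPKM, beside the same 57.8% of coding genes, with 0 to 6 in a neuron. Slc29a4, a nucleoside and monoamine transporter, averaged 28.6 ± 31.3 FPKM and passed the limit in 6 neurons, and Adk, the adenosine kinase, averaged 4.3 ± 4.22 FPKM and passed it in 8. Of 10 genes for ATP loading and release 5 reached it, with Panx1, a pannexin channel, in 6 neurons at a mean of 7.32 ± 8.33 FPKM. Slc17a9, the vesicular nucleotide transporter, had no fragment in any neuron.

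Genes of the G-protein pathways on which these receptors act, effectors among them, came up in every neuron for the Gq and for the Gi and Go lists. The G-protein genes themselves did not always do so. In sample 4 the Gq list summed to 10.2 FPKM, of which the phospholipase genes Plcb2 and Plcb3 gave 7.76 and 1.25 FPKM. All 7 genes of the Gq pathway reached 1 FPKM in some neuron, 2 to 4 of them in each, led by Gna11 at 33.9 ± 26.2 FPKM in 9 neurons. Of 7 genes of the Gi and Go pathway 6 did, 2 to 5 in each, led by Gnai1 at 67.2 ± 57.9 FPKM in 8 neurons. Of 9 genes of the Gs pathway 7 did, 0 to 5 in each, led by Gnal at 7.05 ± 7.74 FPKM in 6 neurons. Beside these counts, 57.8% of coding genes reached 1 FPKM in some neuron, and 19.1% to 37.1% did in a given neuron. Sample 6, with none of the 10 purinergic genes at 1 FPKM, had 4, 2 and 4 genes of the Gq, Gi and Go, and Gs lists, beside 34.4% of coding genes.

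**Figure D4:**
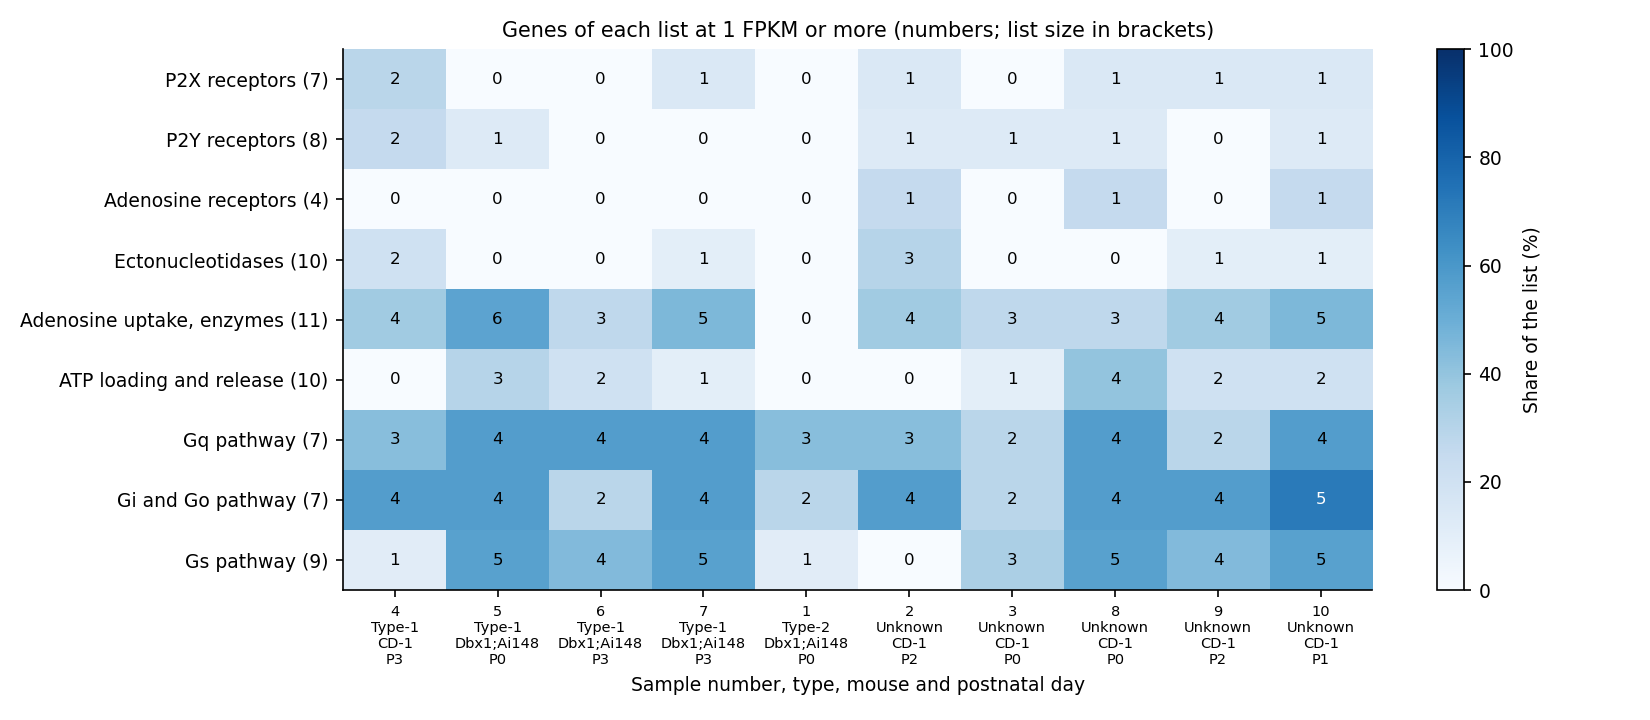
Number of genes of each pathway list (rows, list size in brackets) at 1 FPKM or more in each neuron (columns), with colour for the share of the list in percent. The receptor and ectonucleotidase rows hold 0 to 3 genes in a neuron, and the Gq row holds 2 to 4 in every neuron.

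Vessel RNA was at or near 0 in these libraries, and the oligodendrocyte lineage list (9 genes) held 4 genes at 1 FPKM or more in samples 2, 3 and 8 and 0 to 2 in the others, with summed levels of 0.00824 to 337 FPKM. Among endothelial genes only Tek, at 6.82 FPKM in sample 1, passed the limit, and 4 of the 6 had no fragment. Of the 5 mural genes none reached 1 FPKM, of 4 ependymal genes only Rsph1 did, in sample 6, and of 5 erythroid genes at most 2 did in any neuron. Neuronal genes were present at 1 FPKM or more in every library, 6 to 8 of 8, but in sample 4 Snap25, a synaptic protein, stood at 3.63 FPKM, where the other neurons held 95.7 to 483 FPKM. Of 3 vesicular glutamate transporters only Slc17a6 had a fragment, and 0 to 3 of the 4 GABAergic or glycinergic genes passed the limit in a neuron. Of the 5 preBötC genes listed, Dbx1 itself, an embryonic factor, had no fragment, and up to 3 of the others passed the limit in a neuron.

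**Figure D5:**
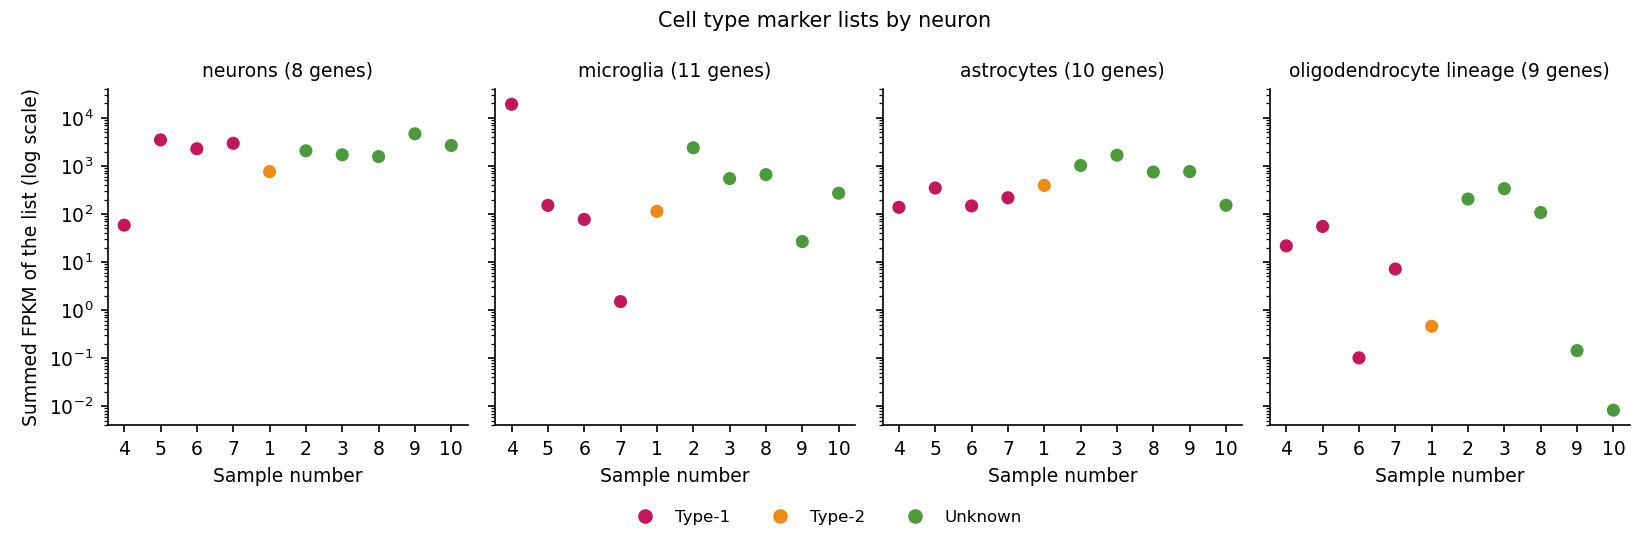
Summed FPKM of the marker lists for neurons, microglia, astrocytes and the oligodendrocyte lineage (logarithmic axis) in each of the 10 neurons, 1 point per neuron, coloured by type. Sample 4 has the highest microglial sum, 19230 FPKM, and the lowest neuronal sum, 58.4 FPKM, and sample 7 has the lowest microglial sum, 1.5 FPKM.

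P2rx4 was the one gene of the 10 found at 1 FPKM or more in 3 neurons, which allowed other genes to be ranked by likeness to it. Over the 10 neurons, Pearson's r of log2(FPKM + 1) with P2rx4 was highest for Pth1r, the receptor for parathyroid hormone (0.93), Atp5g3, a subunit of the mitochondrial ATP synthase (0.92), and Zfp719, a zinc finger gene (0.89), among 9096 coding genes found in at least 3 neurons. Pth1r stood at 36, 26.5 and 24.5 FPKM in samples 2, 7 and 9, and at 2.01 FPKM or less elsewhere. With 10 points that share library and depth, and the highest of many genes taken, these values are a description.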

How the data were processed

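RNA of 10 preBötC neurons, 1 library each, was converted to cDNA with the SMART-Seq v4 kit, which keeps no strand, and sequenced as read pairs. The authors checked the reads with FastQC 0.11.8, trimmed them with bbduk, aligned them with STAR 2.7.7a to GRCm38 and counted fragments per gene with featureCounts. What the authors deposited is, for each gene, its length, the unnormalised fragment counts, and FPKM computed from them (per kilobase and per 1e+06 fragments on genes). The counting options for strand and for fragments in several genes or places were not given in the sources used here, so overlapping genes are uncertain. All values are FPKM as deposited, with exact Poisson intervals computed from the counts.

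Groups, mouse and age were taken from the labels. Legends in the paper number the mouse lines differently, and their numbering was tried as an alternative after the data were seen, as was leaving out samples 1 to 4. Because each sample is 1 neuron and no animal is named, no test was run. A gene was called found at 1 FPKM or more. The share of all genes so called, or not overlapping between groups, was computed in the same way. The calling of non-overlap and the ranking of genes by likeness were tested on simulated data. Gene positions and types were looked up by symbol in GENCODE M21 (GRCm38). Of 55367 listed genes 53365 matched, and 21600 were protein-coding. Promoters are from RefSeq (GRCm38.p6), and a script searched them for motifs.

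The genes, pathway lists, marker lists, motifs and libraries left out were chosen with earlier results of these data known. Genes named were the 10 genes, the gene of each list with the highest mean beside these, further receptors at 1 FPKM or more, the 3 genes most like a gene found in at least 3 neurons, and markers. Those outside this rule (Entpd2, Entpd3, Enpp2, Alpl, Nt5e, Adk, Slc17a9, P2rx3, P2ry4, P2ry10 and genes that overlap one of the 10) were chosen after their values were seen. Alternatives were TPM computed from the counts, medians, log2 means with pseudocounts of 1 and 0.1, limits of 0.1 and 5 FPKM, low counts set to 0, thinning to the smallest total, and leaving out neurons. Scripts ran under Python 3.11.15 with pandas 2.3.3, NumPy 2.4.6, Matplotlib 3.10.9 for plots and SciPy 1.17.1.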

Additional observations from a re-analysis of the deposited data

Results flagged for a closer look

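Dixon's criterion was applied to 8 sets of values, each a gene within the 4 Type-1 or the 5 Unknown neurons, and 7 held 1 neuron far from the rest. A set was taken only where a neuron reached 1 FPKM, so the share of about 1 in 20 that chance gives does not apply, and the 7 are a description. Among Type-1 neurons these were P2rx4 at 6.82 FPKM in sample 7 (next 0.28), P2rx7 at 5.12 FPKM in sample 4 (next 0.00652) and Entpd1 at 21.4 FPKM in sample 4 (next 0.0171). Among Unknown neurons they were P2rx4 at 19.3 FPKM in sample 2 (next 2.91), P2rx6 at 5.77 FPKM in sample 10 (next 1.19), Adora2b at 109 FPKM in sample 2 (next 0.102) and Entpd1 at 1.39 FPKM in sample 10 (next 0.0202).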

How the results depend on the processing

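Means rested on single neurons. Without sample 2 that of Adora2b was 0.0276 in place of 10.9 FPKM, of P2rx4 1.12 in place of 2.94 and of P2rx2 0.00147 in place of 0.0763. Without sample 4 that of Entpd1 was 0.162 in place of 2.28 and of P2rx7 0.0123 in place of 0.523. That of P2rx6 was 0.134 without sample 10 in place of 0.698, and that of Adora1 0.716 without sample 8 in place of 1.81. The count of 6 genes found in at least 1 neuron ranged from 4 to 7 over the alternatives. Of 100 values, 11 reached the limit, 5 of 60 did without samples 2, 3, 4 and 8, and 7 of 60 without samples 1 to 4, a choice made after seeing the data. Leaving out 1 neuron at a time gave 8 to 11, the lowest without sample 10. The count of genes that did not overlap between P0 and P2 and P3 was 0, and ranged from 0 to 1 when 1 neuron was left out. Sample 6 was the only P2 or P3 neuron within the P0 range of P2rx4. Without it the count was 1, P2rx4, where 1.37% of 16546 genes did not overlap. It was also 1 without samples 2, 3, 4 and 8, namely Adora2b, from 1 to 3 fragments at P0 and none at P2 and P3, where 13.6% did not, against 0.665% with all neurons. The percent of values at the limit in CD-1 minus that in Dbx1;Ai148 neurons was 14.2, from 11.5 to 17.5 when 1 neuron was left out. It was -10.8, the opposite direction, with the mouse lines numbered as in the figure legends, also a choice made after seeing the data. That numbering goes against the lines by type in the paper's text. No paired analysis was possible because the neurons share no replicate number across groups. What limits these values is that each is 1 neuron, that a 0 can be a transcript not captured, and that fragment counts rest on amplified cDNA.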
